A study of Mus musculus with 20 samples.

Results

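The plasminogen activator system is described here through 4 genes, chosen by symbol and mapped with GENCODE release M21, of the 55471 genes counted. Serpinb2 encodes plasminogen activator inhibitor 2 (PAI-2), Plau the urokinase activator (uPA), Plaur the cell surface receptor of uPA, and Plat the tissue-type activator (tPA). Total RNA of the mouse salivary gland line SIMS was read in 20 libraries, 4 in each of 5 groups. These were unedited wild type, cells with a CRISPR/Cas9 knockout (KO) of Btbd7, which served as the negative control, and 3 clones with a Cas9 knockout of Zcchc8 (clones 1, 2 and 3). All groups grew in DMEM with fetal bovine serum, and no other allele or agent was given in the labels. The Btbd7 KO carried no clone number, and nothing in the labels said that the 4 libraries of a group came from separate cultures. The p-values below therefore measure the spread between these libraries, which may be technical. Those for the mean of the 3 clones do not measure the spread between clones.

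As background, uPA and tPA are serine proteases that cut the zymogen plasminogen to plasmin, a broad protease that dissolves fibrin and cleaves matrix proteins. uPA bound to its receptor acts at the cell surface, tPA acts mostly on fibrin, and serpins such as PAI-2 block the activators by forming covalent complexes with them. In epithelia the system is known for its part in matrix turnover and cell migration. ZCCHC8 is the scaffold of the nuclear exosome targeting complex, which hands short-lived nuclear RNA to the exosome. Promoter upstream transcripts (PROMPTs), made upstream of active promoters and in general quickly degraded, are among its known targets.

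The genes contribute counts of 2 kinds, those in the gene itself and those in the PROMPT region named by the gene. Levels are in CPM, counts scaled to a common library size by the total of the gene table and its TMM factor. Gene totals ran from 6833258 to 17771804 per library, and all 4 libraries of clone 1 were shallow (6833258 to 7683444). PROMPT counts covered 19 libraries, without wild-type replicate 1, which also had the fewest genes detected (14245, against up to 18791 in the other wild-type libraries). Zcchc8 RNA was at 65.1 CPM in wild type, 60.3 in clone 1, 23.3 in clone 2 and 54.6 in clone 3. Its level thus sets clone 2 well apart from wild type but is no check of clones 1 and 3, since a Cas9 edit need not lower the RNA. Btbd7 RNA was 202 CPM in wild type and 99.2 CPM in Btbd7 KO. All 7 ductal or luminal epithelial markers were expressed, at a summed 3105 to 5048 CPM over all libraries.

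Serpinb2 was low in every Zcchc8 KO library and at the wild-type level in Btbd7 KO. The gene (ENSMUSG00000062345.10, GRCm38, chromosome 1, 107511423 to 107535478, plus strand) overlaps Serpinb10 on the same strand, but Serpinb10 held 0 counts in 19 libraries and 3 counts in the other. Serpinb2 has 2 starts in RefSeq, and the 250 bases before the first (GRCm38.p6, chr1:107511173-107511422, plus strand) are shown. This member was picked because its level differed most, and the window of its other start is not described here. Capitals mark a TATA box, TATAAA, whose first base lies 29 bases before the first start.

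Serpinb2 promoter: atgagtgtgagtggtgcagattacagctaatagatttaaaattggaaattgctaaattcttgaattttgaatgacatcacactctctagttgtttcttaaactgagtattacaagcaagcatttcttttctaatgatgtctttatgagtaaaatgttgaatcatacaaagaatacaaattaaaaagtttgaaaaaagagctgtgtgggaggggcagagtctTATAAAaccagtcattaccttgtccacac

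Serpinb2 was at 10.9, 12.5, 16.4 and 10.2 CPM in the wild-type libraries and at 13.2, 11.6, 13.0 and 13.9 CPM in Btbd7 KO. It was at 4.17, 2.57, 3.91 and 1.27 CPM in clone 1, at 3.84, 1.92, 3.94 and 2.97 CPM in clone 2, and at 5.13, 4.65, 3.57 and 4.02 CPM in clone 3. All 12 Zcchc8 KO libraries lay below all 8 others, but how many of all genes separate in this way was not counted. Behind these values stood 167 to 219 counts per wild-type library and 10 to 72 counts per Zcchc8 KO library. In edgeR's fit over all genes the mean of the 3 clones was 1.86 lower on the log2 scale than wild type (log2 fold change -1.86, SE 0.19), which is 3.62-fold. Each clone showed it, at -2.07 (SE 0.27), -1.99 (SE 0.25) and -1.51 (SE 0.25) in clones 1, 2 and 3.

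The gene was known from this contrast before it was chosen, so these folds carry no test. Over all tested genes, 19.9% were called lower at an adjusted p under 0.05, and 58 of 15297 had a lower log2 fold change than Serpinb2. Against Btbd7 KO the same 12 libraries gave -1.91 (SE 0.19), and Btbd7 KO itself differed from wild type by 0.05 (SE 0.23). The clones did not differ in Serpinb2 beyond their spread (edgeR joint quasi-likelihood test, adjusted p = 0.235). Clone 1 minus clone 3 was the widest gap among pairs, at -0.56 with a 95% interval of -1.14 to 0.03. In RNA of a whole culture, fewer cells that express a gene and less RNA per cell cannot be told apart.

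**Figure D1:**
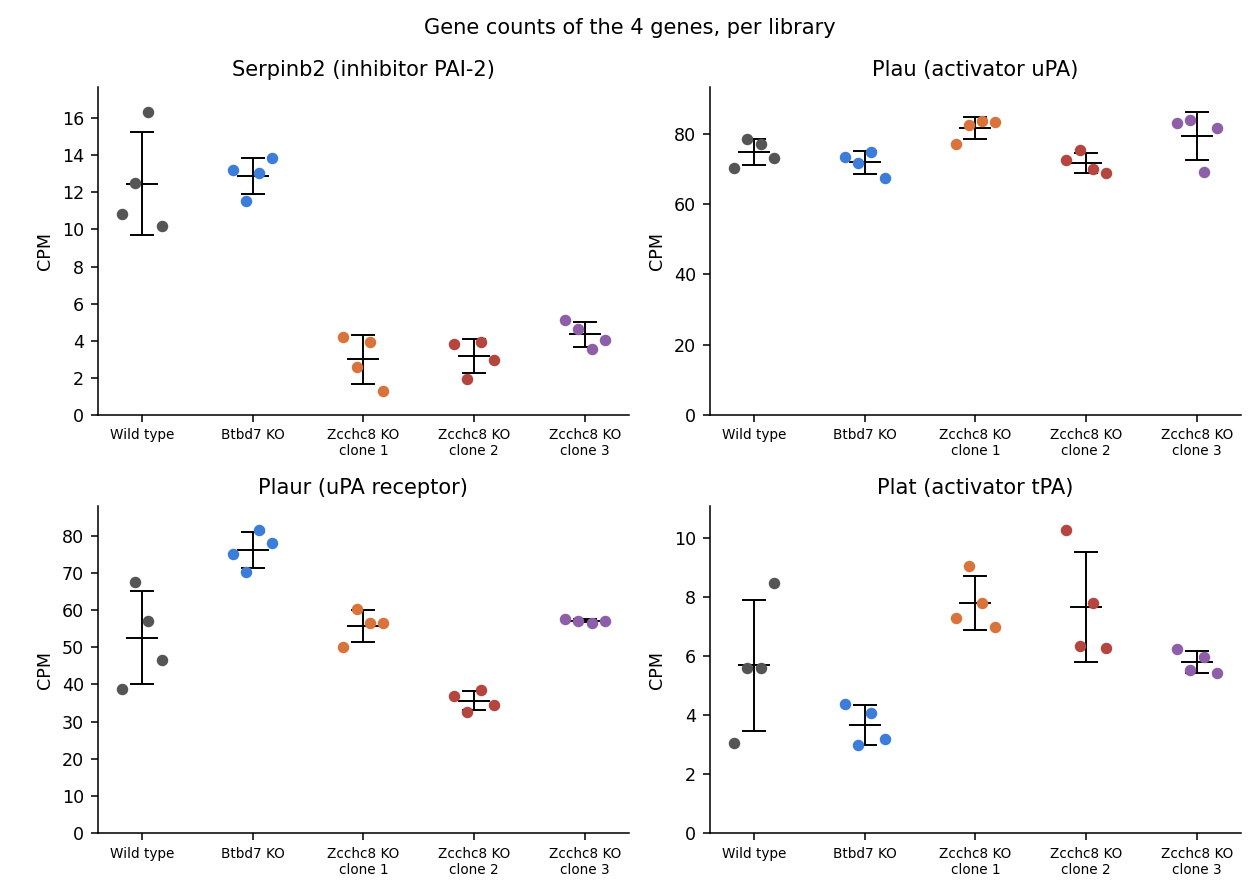
Gene counts of Serpinb2, Plau, Plaur and Plat in CPM (y axis, from 0) in the 5 groups (x axis), with a point per library, a bar at the mean of 4 libraries and whiskers of 1 SD. Serpinb2 sits at 1.27 to 5.13 CPM in the 12 Zcchc8 KO libraries and at 10.2 to 16.4 CPM in wild type, whereas Plau stays between 67.7 and 84.1 CPM in all 20.

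Plau, the activator, had the highest mean level per kilobase of the 4 genes in all 5 groups and was nearly level across them. The gene (ENSMUSG00000021822.3, chromosome 14, 20836660 to 20843385, plus strand) held 531 to 1357 counts per library. It was at 70.4, 78.5, 77.2 and 73.3 CPM in wild type and at 73.6, 71.7, 75.1 and 67.7 CPM in Btbd7 KO. Clone 1 had 77.1, 82.7, 83.8 and 83.6 CPM, clone 2 had 72.8, 75.4, 70.0 and 69.0 CPM, and clone 3 had 83.1, 84.1, 69.3 and 81.8 CPM. The 12 Zcchc8 KO libraries spanned the wild-type range, with 6 above and 3 below every wild-type library.

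The log2 fold change of Plau for the clone mean against wild type was 0.05 (SE 0.06, 95% interval -0.06 to 0.17), the narrowest interval of the 4 genes. Btbd7 KO minus wild type was -0.06 (SE 0.07, edgeR adjusted p = 0.629). Between clones Plau did not pass the joint test (edgeR adjusted p = 0.0811). Clone 1 was 0.19 above clone 2 (95% interval 0.05 to 0.33, edgeR adjusted p = 0.0517). This lies near the threshold, and the joint test passed it in DESeq2 (adjusted p = 0.0303) and in edgeR without clone 3 replicate 3 (adjusted p = 0.0241).

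Plaur, the receptor, differed between the clones and rose in the negative control. The gene (ENSMUSG00000046223.10) lies on chromosome 7, 24462484 to 24475968, plus strand. The 250 bases before its RefSeq start (GRCm38.p6, chr7:24462233-24462482, plus strand) are shown because Plaur has both gene and PROMPT counts that changed. Capitals mark 3 GC boxes, GGGCGG, whose first bases lie 111, 105 and 100 bases before the start, the last pair sharing a base. They also mark an AP-1 site, TGACTCA, whose first base lies 69 bases before it.

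Plaur promoter: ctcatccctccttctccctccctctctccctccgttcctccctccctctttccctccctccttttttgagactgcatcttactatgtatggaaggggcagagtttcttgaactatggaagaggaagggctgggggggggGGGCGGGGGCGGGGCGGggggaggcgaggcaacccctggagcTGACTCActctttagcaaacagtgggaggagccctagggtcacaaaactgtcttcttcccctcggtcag

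All 3 motifs were searched on both strands, and matches to different motifs did not overlap in these windows. Of 32851 RefSeq windows of 250 bases, 12.4% held the TATA box, 4.46% the AP-1 site and 32.7% the GC box. The Serpinb2 window held neither an AP-1 site nor a GC box by these letters, and the Plaur window held no TATA box. A match describes letters and is no evidence of a bound factor. RefSeq's table matched 2 of the 4 genes, and the promoters of Plau and Plat are not shown.

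Plaur was at 38.9, 67.7, 57.2 and 46.6 CPM in wild type, a wide spread (52.6 ± 12.6 CPM, SD, n = 4). Btbd7 KO had 75.1, 70.2, 81.5 and 78.1 CPM, all above every wild-type library. Clone 1 had 50.01, 60.4, 56.6 and 56.4 CPM, and clone 3 had 57.7, 57.1, 56.6 and 57.2 CPM. Both clones lay inside the wild-type range. Clone 2 had 37.0, 32.7, 38.4 and 34.6 CPM, all below every wild-type library, though its highest was within 1 CPM of the lowest wild-type one. That lowest library was replicate 1, which had the fewest genes detected, and the other wild-type libraries were at 46.6 to 67.7 CPM. How many of all genes separate between groups in this way was not counted.

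The 3 clones differed in Plaur (edgeR joint quasi-likelihood test, adjusted p = 5.54e-05), as did 28.5% of all tested genes. Clone 1 exceeded clone 2 by 0.65 on the log2 scale (SE 0.12, edgeR adjusted p = 0.000157), where 10.2% of genes were called higher in clone 1. Clone 2 minus clone 3 was -0.68 (SE 0.11, edgeR adjusted p = 8.05e-05), where 8.46% were called lower in clone 2. Clone 1 minus clone 3 was -0.03 (95% interval -0.27 to 0.20, edgeR adjusted p = 0.912). The order of the group means was therefore clone 2, then wild type, clone 1 and clone 3 within each other's spread, then Btbd7 KO. The mean of the clones against wild type, -0.12 (SE 0.09), averages over clones that differ. With a library left out this mean ran from -0.22 to 0.03. Per clone the difference from wild type was 0.09 (SE 0.11), -0.56 (SE 0.11) and 0.12 (SE 0.11). Clone 2 is also the clone with the most RNA of Trp63, a basal cell marker, at 20.7 CPM against 2.43 in wild type, 0.571 in Btbd7 KO, 1.47 in clone 1 and 4.00 in clone 3. Krt14 in clone 2 (287 CPM) was above clones 1 and 3 (187 and 204) but below wild type (319) and Btbd7 KO (412). Acta2, Myh11, Cnn1 and Krt5 had means under 1 CPM in every group. The summed level of the 6 myoepithelial or basal markers, mostly Krt14, was 277 to 347 CPM in clone 2, 165 to 215 CPM in clone 1 and 194 to 226 CPM in clone 3, so that clone 2 lay above both others. It was 253 to 398 CPM in wild type and 401 to 421 CPM in Btbd7 KO, where Plaur was highest. Their part in the Plaur difference was not tested.

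In Btbd7 KO, Plaur was 1.45-fold higher than in wild type (log2 fold change 0.53, SE 0.11, edgeR adjusted p = 0.00124). It was the only gene of the 3 tested in this contrast (Plau, Plaur and Plat) that passed, where 7.73% of all tested genes were called higher and 8% lower. Leaving out each library in turn kept it between 0.42 and 0.68 (edgeR adjusted p at most 0.00685). Over 6 alternative settings, in edgeR or DESeq2, its adjusted p ran from 9.97e-07 to 0.0451, the last of them near the threshold. Against Btbd7 KO the 12 Zcchc8 KO libraries thus stood at -0.65 (SE 0.09), although 8 of the 12 lay within the wild-type range.

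Plat, the tissue-type activator (ENSMUSG00000031538.6, chromosome 8, 22757727 to 22782844, plus strand), had the fewest counts per kilobase of the 4 in wild type. Over the libraries of all groups it held 33 to 145 counts, and 47 to 145 in wild type. It was at 3.06, 5.61, 5.61 and 8.50 CPM in wild type and at 4.40, 2.99, 4.09 and 3.21 CPM in Btbd7 KO. Clone 1 had 7.29, 9.07, 7.82 and 7.01 CPM, clone 2 had 10.3, 6.34, 7.81 and 6.29 CPM, and clone 3 had 6.26, 5.52, 5.99 and 5.45 CPM. The Zcchc8 KO and Btbd7 KO libraries did not overlap, but the wild-type libraries spanned much of the range of both. How many of all genes separate in this way was not counted, so for Plat it is a description only. The clone mean stood 0.30 above wild type (SE 0.20) and 0.93 above Btbd7 KO (SE 0.21) on the log2 scale. The first of these rested on single wild-type libraries, since it was 0.10 without replicate 1 and 0.58 without replicate 4.

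Btbd7 KO minus wild type was -0.64 for Plat (SE 0.25, 95% interval -1.15 to -0.13) and did not pass (edgeR adjusted p = 0.0819). Without wild-type replicate 1, the library with the lowest Plat level and the fewest genes detected, it was -0.84 and passed (edgeR adjusted p = 0.00426). Without wild-type replicate 4 it was -0.37 (edgeR adjusted p = 0.338). The clones did not differ beyond their spread (edgeR joint adjusted p = 0.353).

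Per kilobase of exon, the order of the 4 genes by mean was the same in all 5 groups, but some neighbours stood within their spread. In wild type Plau stood at 31.6 ± 1.56 CPM per kb, Plaur at 20.1 ± 4.80, Serpinb2 at 5.31 ± 1.18 and Plat at 0.913 ± 0.357 (SD, n = 4), each apart from the next by more than the SDs. In Btbd7 KO Plau (30.4 ± 1.36 CPM per kb) and Plaur (29.1 ± 1.84) stood within their spread. In clone 1 Serpinb2 (1.27 ± 0.568 CPM per kb) and Plat (1.25 ± 0.147) did, and so did they in clone 2 (1.35 ± 0.398 and 1.23 ± 0.300), whereas in clone 3 Serpinb2 (1.85 ± 0.291) remained above Plat (0.931 ± 0.0620). So the inhibitor, well above tPA RNA in wild type, was at its level in clones 1 and 2.

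The ratio of Plau to Serpinb2 counts within a library does not depend on scaling. It was 4.72 to 7.18 in wild type, 4.88 to 6.21 in Btbd7 KO, 18.5 to 65.6 in clone 1, 17.8 to 39.2 in clone 2 and 16.2 to 20.4 in clone 3. Every Zcchc8 KO library thus had at least 16.2 Plau counts per Serpinb2 count, and no other library more than 7.18. The highest ratio came from clone 1 replicate 4, where Serpinb2 had 10 counts. Being made of the same counts, this ratio restates the low Serpinb2 level and is given without a test.

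**Figure D2:**
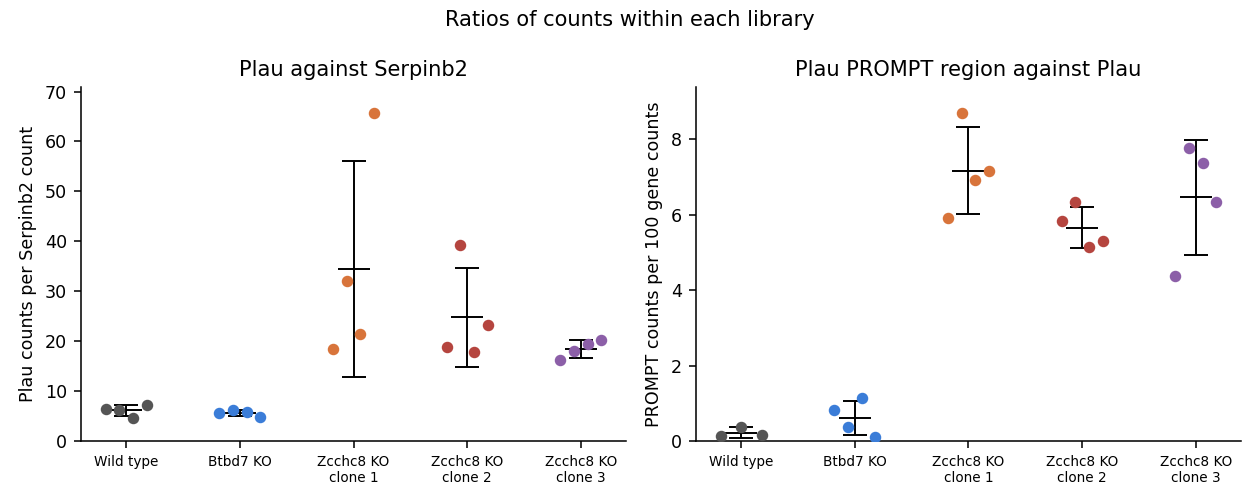
Ratios of counts within each library (y axes, from 0) in the 5 groups, with points for libraries, a bar at the mean and whiskers of 1 SD. Plau counts per Serpinb2 count (left) were 4.72 to 7.18 in wild type and 16.2 to 65.6 in the Zcchc8 KO libraries, and Plau PROMPT counts per 100 Plau gene counts (right) were 0.147 to 0.387 in 3 wild-type libraries and 4.37 to 8.67 in the 12 Zcchc8 KO libraries.

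In the PROMPT regions the activator and the receptor showed the rise. The Plau PROMPT region held 2, 4 and 2 counts in the wild-type libraries (0.177 ± 0.105 CPM, SD, n = 3) and 10, 4, 7 and 1 counts in Btbd7 KO (0.455 ± 0.349 CPM, n = 4). It held 35, 53, 40 and 47 counts in clone 1, 31, 67, 63 and 53 in clone 2 and 51, 52, 40 and 76 in clone 3. In CPM this was 4.56, 7.18, 5.79 and 5.99 in clone 1, 4.25, 4.77, 3.59 and 3.66 in clone 2, and 3.63, 6.53, 5.10 and 5.18 in clone 3. All 12 Zcchc8 KO libraries were above all 7 others, but how many of all regions separate in this way was not counted.

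The clone mean was 4.79 above wild type on the log2 scale (SE 0.43, 95% interval 3.92 to 5.65, edgeR adjusted p = 8.35e-15). With 2 to 4 counts per wild-type library and 1 to 10 per Btbd7 KO library, the region passed the filter on low counts through its Zcchc8 KO libraries. Its p-values against those libraries are therefore a description, and its rank is among regions that passed this filter. Of all tested PROMPT regions 39.2% were called higher in this contrast and 28.4% for the mean and in each clone, so a call is common. The size was less so, since 441 of 17617 tested regions (2.5%) had a larger log2 fold change. The rise was 5.04, 4.50 and 4.82 in clones 1, 2 and 3, and the clones did not differ beyond their spread (edgeR joint adjusted p = 0.446, with 10.9% of regions called). Against Btbd7 KO it was 3.49 (SE 0.34, edgeR adjusted p = 7.89e-14), where 45.1% of regions were called higher. Btbd7 KO minus wild type was 1.30 (95% interval 0.07 to 2.52) and did not pass (edgeR adjusted p = 0.277), where 1.23% of regions were called higher. Few counts stood on either side.

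The Plaur PROMPT region rose as well. It held 17, 3 and 9 counts in wild type (0.984, 0.224 and 0.528 CPM) and 14, 9, 5 and 10 counts in Btbd7 KO (0.844, 0.597, 0.620 and 0.845 CPM). It was at 4.17, 2.71, 2.90 and 3.06 CPM in clone 1, at 2.33, 1.21, 2.05 and 2.56 CPM in clone 2 and at 4.41, 1.51, 3.19 and 4.36 CPM in clone 3, from 12 to 64 counts. The 12 libraries were again above all 7 others, with clone 2 replicate 2 nearest to them. As for Plau, the share of regions that separate in this way was not counted, so this is a description only.

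For the Plaur PROMPT region the clone mean was 2.22 above wild type on the log2 scale (SE 0.40, 95% interval 1.43 to 3.02, edgeR adjusted p = 3.77e-06), and 19.4% of tested regions had a larger log2 fold change. Without wild-type replicate 2, whose 17 counts were the most in its group, the rise was 2.82 (edgeR adjusted p = 3.52e-06). It was 1.89 without wild-type replicate 3 (edgeR adjusted p = 0.000265) and 2.15 without wild-type replicate 4 (edgeR adjusted p = 6.51e-05). Clones 1, 2 and 3 gave 2.41, 1.75 and 2.51, and their differences did not pass (edgeR joint adjusted p = 0.294). Clone 2 was thus the lowest in the Plaur PROMPT region by its mean as in the gene, but for the region this was not a difference beyond the spread. Btbd7 KO minus wild type was 0.30 (95% interval -0.68 to 1.27, edgeR adjusted p = 0.830).

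**Figure D3:**
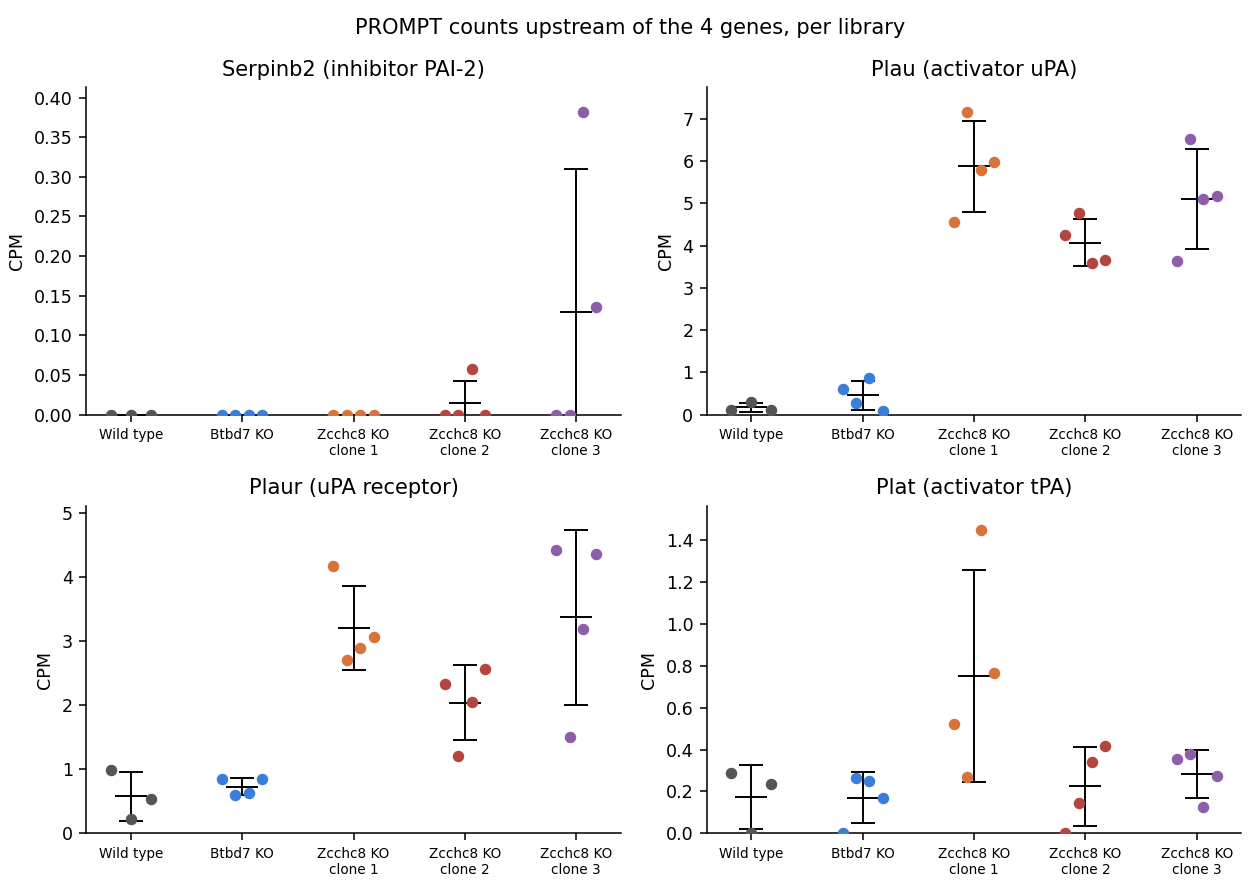
PROMPT counts named by the 4 genes in CPM (y axes, from 0, with a scale of their own in each panel) in the 5 groups, with a point per library, a bar at the mean and whiskers of 1 SD, cut at 0 (3 libraries in wild type, 4 elsewhere). The Plau region lies at 3.59 to 7.18 CPM and the Plaur region at 1.21 to 4.41 CPM in the 12 Zcchc8 KO libraries, above all others, whereas the Serpinb2 and Plat regions hold few counts anywhere.

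The PROMPT regions of the other members did not pass the filter on low counts, so 2 of 4 were tested. The Serpinb2 region held 0 counts in all wild-type, Btbd7 KO and clone 1 libraries, 0 to 1 in clone 2 and 0 to 3 in clone 3. A count of 0 allows up to 3 counts per library, which is 0.174 to 0.224 CPM in the wild-type libraries, for counting error only. In the Zcchc8 KO libraries the same 3 counts are 0.171 to 0.434 CPM. A rise below that was not detectable at this depth, whereas the Plau region reached at least 3.59 CPM in the same libraries. The Plat region held 0 to 10 counts, at 0 to 0.289 CPM in wild type, 0 to 0.266 CPM in Btbd7 KO, 0.271 to 1.45 CPM in clone 1, 0 to 0.415 CPM in clone 2 and 0.128 to 0.377 CPM in clone 3. In Plat 7 of the 12 Zcchc8 KO libraries were above every wild-type library, including 3 of clone 1, which overlaps the controls.

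PROMPT counts were also set against the counts of the gene in the same library. Per 100 counts in the gene, the Plau PROMPT region had 0.147 to 0.387 counts in wild type, 0.125 to 1.16 in Btbd7 KO and 4.37 to 8.67 in the Zcchc8 KO libraries. For Plaur these were 0.392 to 1.45, 0.761 to 1.12 and 2.64 to 8.33. Even in the clones the PROMPT counts were thus a small part of the gene's. How far a PROMPT region reaches and on which strand it was counted are not given in the sources used here. The nearest annotated gene upstream of Plau is Gm30108, 40100 bp away, and that of Plaur is Irgc1, 10187 bp away on the minus strand. Of the 11365 genes tested in both tables, the median log2 fold change was 0.01 in the gene and 0.79 in the PROMPT region.

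**Figure D4:**
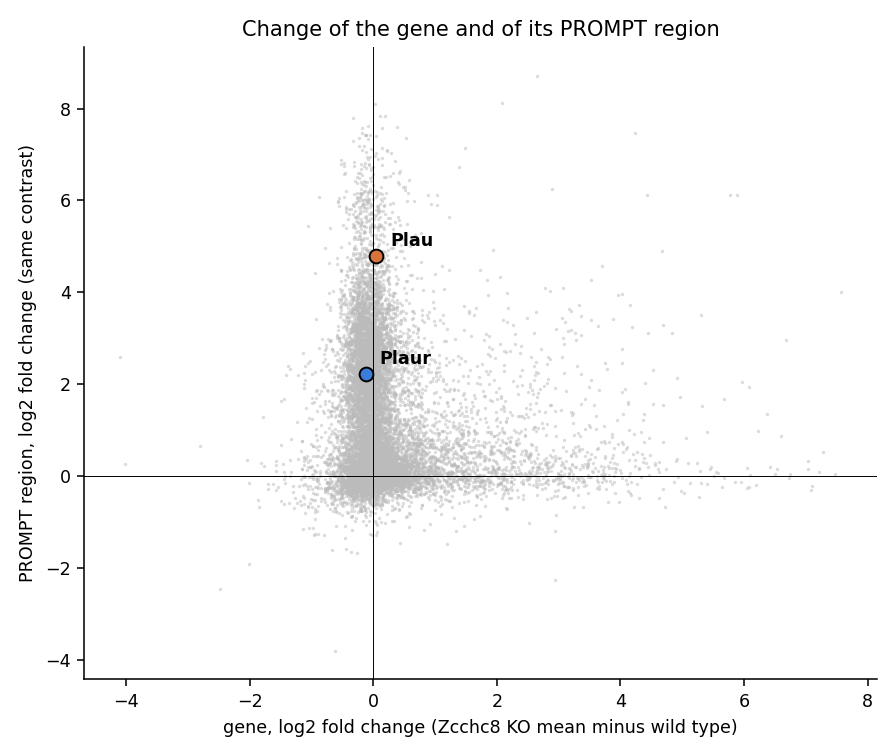
Log2 fold change of the gene (x axis) and of its PROMPT region (y axis) for the 3 Zcchc8 KO clones, averaged, against wild type, with a grey point for each of 11365 genes tested in both tables. Plau lies at 0.05 and 4.79 and Plaur at -0.12 and 2.22, above 0 on the y axis and near 0 on the x axis.

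Other genes of the system are described by role, from a list chosen with earlier results of these data known. Its counts and p-values in the Zcchc8 KO contrasts are therefore a description. The 40 further genes were sorted by role, and 14 passed the filter on low counts. Of these, edgeR called 2 higher and 4 lower for the mean of the clones. Over all tested genes 16.2% were higher and 19.9% lower. The median log2 fold change of the 14 was -0.044, and that of all tested genes -0.01. Of the others, 24 of 26 had fewer than 10 counts in every library, among them plasminogen itself (Plg, 0 to 1 counts), and Serpine2, the inhibitor protease nexin 1, was at 0 in all 20 libraries.

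Among the 7 further inhibitors of the list 1 was tested, Serpini1, which encodes the tPA inhibitor neuroserpin and is named after its values were seen. It was not called in the clone mean (log2 fold change -0.30, edgeR adjusted p = 0.704).

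Of 14 genes for plasminogen binding and for clearance of activator complexes, 8 were tested, with 3 called lower and 0 higher in the clone mean by edgeR. S100a10, whose protein forms with annexin A2 a surface receptor for plasminogen and tPA, fell in the mean and in each clone (log2 fold change -0.49, SE 0.08, edgeR adjusted p = 4.43e-05). Its level was 344 ± 41.4 CPM in wild type and 232, 259 and 246 CPM in clones 1, 2 and 3. It was also lower in Btbd7 KO, at 263 ± 16.9 CPM (log2 fold change -0.39, edgeR adjusted p = 0.00988). Against that control the clone mean of S100a10 was not called (-0.099, edgeR adjusted p = 0.377). The others, named after their values were seen, were Plgrkt, a plasminogen receptor (-0.44, edgeR adjusted p = 0.00103), and Anxa2 (-0.18, edgeR adjusted p = 0.00515). The call for Anxa2 was lost without wild-type replicate 2 (edgeR adjusted p = 0.0538). Sorl1, a sorting receptor, fell in Btbd7 KO (-1.27, edgeR adjusted p = 7.34e-11) and stood at 0.02 in the clone mean.

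Of 19 plasmin substrates and neighbouring proteases, 5 were tested, with 2 called higher and 1 lower. F3, which encodes tissue factor, the cell surface starter of coagulation, fell in the mean and in each clone (log2 fold change -0.69, SE 0.10, edgeR adjusted p = 7.90e-06), from 39.2 ± 7.32 CPM in wild type to 27.9 ± 4.09, 28.8 ± 1.26 and 18.1 ± 3.19 CPM. In Btbd7 KO F3 was at 37.8 ± 2.81 CPM (-0.06, edgeR adjusted p = 0.816), and the clone mean of F3 was lower than that control too (-0.63, edgeR adjusted p = 1.97e-05). Fn1, fibronectin, was called higher (0.35, edgeR adjusted p = 5.47e-06), but stood at -0.15 in clone 2. It rose by 0.90 in Btbd7 KO (edgeR adjusted p = 1.37e-10), so that the clone mean was below that control (-0.55, edgeR adjusted p = 1.52e-09). Pdgfc, a growth factor activated by tPA and plasmin, was called higher as well (0.50, edgeR adjusted p = 0.00107), with 0.08 in clone 3. Both were named after their values were seen. F3 and S100a10 were thus the 2 genes of the list called in the mean and in each clone, all lower, where 5.82% of tested genes were called lower and 7.64% higher in this way. None was called higher so by edgeR, and 0 were at an unadjusted p under 0.05.

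The other genes of Serpinb2's own clade, the intracellular clade B serpins, were mostly lower or not called. Of 26 such genes 11 were tested, and edgeR called 7 lower and 0 higher in the clone mean, against 19.9% and 16.2% of all genes. This list was chosen with earlier results of these data known, so its counts and p-values are a description. DESeq2 also called 7 lower and 0 higher, and at an unadjusted p under 0.05 edgeR's counts were again 7 and 0. The median log2 fold change was -0.50, and Serpinb2 itself was lower than all 11. Called lower in the mean and in each clone were Serpinb9b (-1.25, SE 0.11), Serpinb6b (-0.76, SE 0.05), Serpinb9 (-0.55, SE 0.09), a granzyme B inhibitor, and Serpinb5 (-0.50, SE 0.06), which encodes maspin. Their edgeR adjusted p-values ran from 3.67e-11 to 6.85e-05, and 5.82% of all tested genes were called lower by this rule. Against Btbd7 KO the clone mean was -2.42 for Serpinb9b, -0.55 for Serpinb6b, -0.38 for Serpinb5 and -0.27 for Serpinb9. For Serpinb9 this was nearest the threshold (edgeR adjusted p = 0.030). Against that control Serpinb9 was called in clone 2 (-0.38), but not in clone 1 (-0.12, edgeR adjusted p = 0.473) or clone 3 (-0.30, edgeR adjusted p = 0.059). These are multigene families, and how reads shared between near copies were counted is not given in the sources used here.

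The remaining calls were Serpinb6a (-0.36, edgeR adjusted p = 4.34e-05), Serpinb1c (-1.06, edgeR adjusted p = 0.0203) and Serpinb1a (-0.50, edgeR adjusted p = 0.0459). Serpinb1a stood at -1.96 in clone 1, 0.77 in clone 2 and -0.32 in clone 3, so its mean describes no clone. Its call was lost in 16 of 20 fits that left out a library (edgeR adjusted p from 0.00135 to 0.115 over the 20), and kept without wild-type replicate 3 or 4, clone 1 replicate 2 or clone 3 replicate 3. It was also lost with the replicate block (edgeR adjusted p = 0.0511) and without TMM factors (edgeR adjusted p = 0.0960). Serpinb1c was no longer called without wild-type replicate 1 (-0.63, edgeR adjusted p = 0.148). The tested serpins on the chromosome of Serpinb2 were Serpinb8, at 107590006 to 107610484, with 0.10 (SE 0.07, edgeR adjusted p = 0.283), and Serpinb5, at 106861173 to 106883348. The other 9 tested serpins lie on chromosome 13.

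In Btbd7 KO 2 of these serpins were called. Serpinb9b rose there by 1.17 (SE 0.13, edgeR adjusted p = 6.42e-07), to 80.4 ± 4.14 CPM from 35.8 ± 8.72 CPM in wild type, whereas it was at 10.6, 16.9 and 18.9 CPM in clones 1, 2 and 3. Serpinb6b was lower by -0.20 (edgeR adjusted p = 0.0349), a call lost in 7 of 20 fits that left out a library. With Serpinb2 at 0.05, the 1 gene called higher and 1 lower of 11 compare with 7.73% and 8% of all genes.

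**Figure D5:**
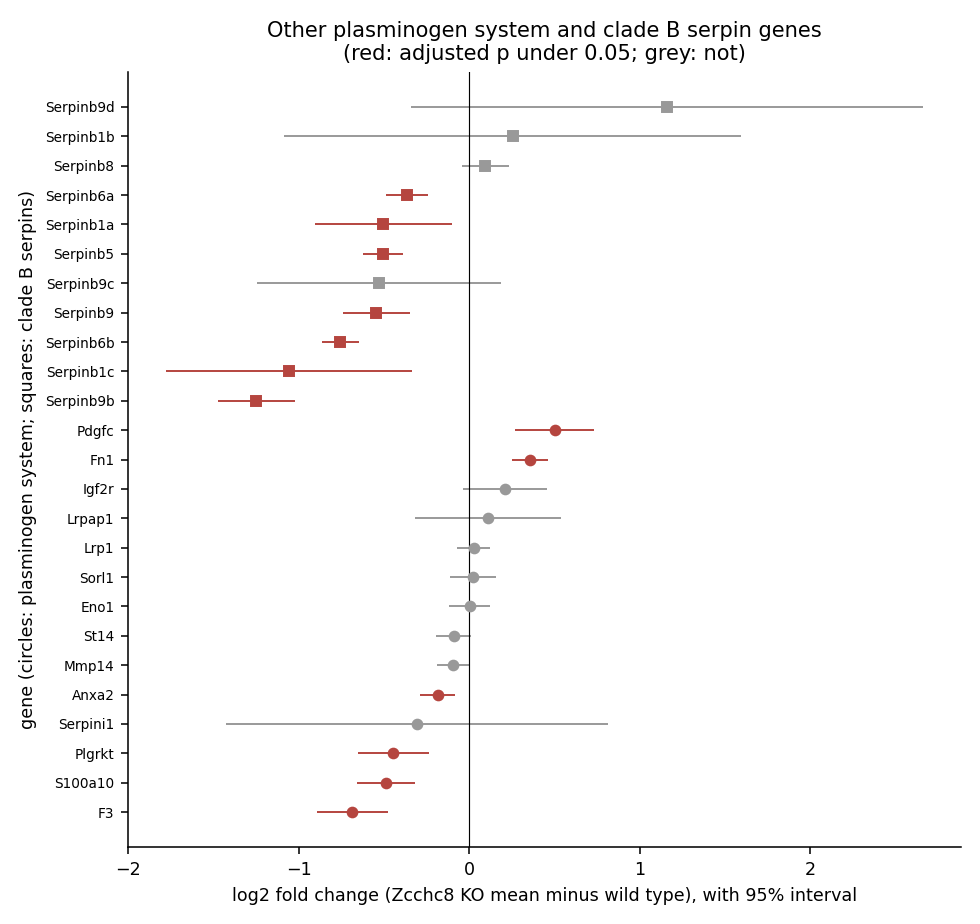
Log2 fold change (x axis, averaged Zcchc8 KO clones against wild type) with its 95% interval for the 14 tested genes of the plasminogen system list (circles) and the 11 other clade B serpins tested (squares), in red where the adjusted p was under 0.05. Among the serpins 7 are red and left of 0, and in the plasminogen list 4 are red on the left and 2 on the right.

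Markers of other cell types were checked because macrophages are a known source of Serpinb2 and fibroblasts of Plau. The macrophage markers Adgre1 and Tyrobp were at 0 in all 20 libraries. The summed level of the 6 macrophage markers, of which Cd68 and Csf1r exceeded 1 CPM, was 7.61 to 9.61 CPM in wild type, 7.60 to 8.81 in Btbd7 KO, 13.2 to 16.4 in clone 1, 12.3 to 15.4 in clone 2 and 6.88 to 10.5 in clone 3. That of the 6 fibroblast markers, mostly Col1a1, was 11.4 to 18.5 CPM in wild type, 22.5 to 35.2 in Btbd7 KO, 10.2 to 14.2 in clone 1, 24.4 to 28.2 in clone 2 and 22.2 to 26.3 in clone 3, with Lum at 0 throughout. Col1a1 was at 11.4 CPM in wild type and 10.7, 24.3 and 22.9 in clones 1, 2 and 3. Col3a1 went the other way in clones 2 and 3, at 3.15 CPM in wild type and 0.165, 0.0688 and 0.894 in clones 1, 2 and 3. The summed level of the 5 acinar markers, nearly all Aqp5, was 167 to 188 CPM in wild type, 109 to 115 in Btbd7 KO and 115 to 164 in the clones. The part of these levels in the low Serpinb2 level was not tested.

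The genes nearest to each member in pattern were taken by Pearson's r of log2 CPM over the 20 libraries, among 10776 genes with a mean of at least 50 counts. The libraries share groups and depth, so r mostly follows the group means and is given as a description. Serpinb2 was most like Gcnt3 (r = 0.932), Tnc (0.931) and Ccnd1 (0.923), which fell from 93.9 to 48.8, 26.8 to 0.868 and 508 to 311 CPM between wild type and the Zcchc8 KO libraries. Plaur was most like Dok2 (0.939), Tcof1 (0.938) and Rab11fip5 (0.937), each highest in Btbd7 KO, at 10.5, 126 and 157 CPM. Plau, with little variation to follow, was most like Kbtbd4 (0.837), Zswim4 (0.818) and Lama5 (0.799), and Plat was most like Sun2 (0.898), Pcf11 (0.878) and Tk1 (0.847). None of the 4 members was among another's 3 nearest genes. Among themselves their r ran from -0.62 (Plat and Serpinb2) to 0.52 (Plaur and Serpinb2).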

How the data were processed

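Total RNA libraries were made with Illumina's stranded kit, per the labels' protocols. The files deposited by the authors hold unnormalised counts, of which the gene table and the PROMPT table were used here. The submitters' processing notes name FastQC and STAR 2.7.3a. The genome build, the counter, its strand setting and the extent of a PROMPT region are not given in the sources used here. Of 55471 identifiers, 54573 matched GENCODE M21 (GRCm38) with their version and 55230 without.

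Counts were fitted with edgeR 4.0.16 in R 4.3.3 (TMM factors, filterByExpr, quasi-likelihood F-tests). Each table had 1 fit, with the 5 groups as terms. PROMPT counts took library sizes and TMM factors from the gene table. Benjamini-Hochberg adjustment ran over all 15297 genes or 17617 PROMPT regions tested, with a call at an adjusted p under 0.05. CPM per kb used the summed exon length. log2 CPM carried a pseudocount of 0.5. The fits were tested on simulated counts. No pair of libraries of a group was alike within sampling error (chi-square divided by its degrees of freedom, 2.89 to 78.6). Wild type held the widest pairs, at 6.51 to 78.6, against at most 8.46 in any other group.

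The members and gene lists were chosen with earlier results of these data known, so the members' gene-level contrasts with Zcchc8 KO carry no p. Those of the list genes carry p-values as a description only. The text names the 4 members, list genes called in the mean and each clone, Serpine2, the 3 genes most like each member, and others where stated. Library totals and intervals cover counting error and spread between libraries, not between cultures. The SEs, intervals and p-values of the clone mean leave out the spread between the 3 clones, and 28.5% of tested genes differed between clones. Alternatives were DESeq2 1.42.0 (for PROMPT regions on those edgeR tested, set after the data were seen because its parametric trend could not be fitted to all of them), other scalings and filters, the groups compared alone, a replicate block, calls in each clone, Btbd7 KO as control and leaving out each library. TMM factors from filtered genes were added after the data were seen. A result of the planned gene list is not reported here, and its counts leave it out.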

Additional observations from a re-analysis of the deposited data

Results flagged for a closer look

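Plaur differed between Zcchc8 KO clones. Clone 1 minus clone 2 was 0.65 and clone 2 minus clone 3 was -0.68 on the log2 scale, each past the test of the difference itself (edgeR adjusted p = 0.000157 and 8.05e-05).

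Plau in clone 1 had a library below the others, replicate 1 at 77.1 CPM, and in clone 3 replicate 3 at 69.3 CPM. In each the gap to the nearest library took a larger share of the group's range than Dixon's limit for 4 samples. Of 32 groups checked 2 were marked, and chance marks about 1 in 20.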

How the results depend on the processing

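Members with few counts limit what can be seen: Plat and Serpinb2 PROMPT regions could not be tested, and Plau's had 2 to 4 counts per wild-type library. The joint clone test of Plau gave an adjusted p of 0.0303 in DESeq2 and 0.0241 to 0.186 when a library was left out. Plat in Btbd7 KO ran from -0.84 to -0.37 in those fits, and the Plaur PROMPT region there from -0.044 (without wild-type replicate 3, reversed) to 0.90. Plaur in clone 1 minus clone 3 ran from -0.067 to 0.022 (reversed without clone 1 replicate 1), and in Plau from -0.013 (reversed without clone 3 replicate 3) to 0.072. The cause was not tested.

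Counting only genes called in each clone, 0 of the plasminogen list were higher and 2 lower, and 4 clade B serpins were lower. In the mean and each clone, 5.82% of all tested genes were called lower and 7.64% higher. Without TMM factors 1 serpin was higher, and the range with a library left out was 0 to 1 (1 without wild-type replicate 4). With Btbd7 KO as control 1 serpin was higher, Serpinb8 (0.29, edgeR adjusted p = 0.00128), and 6 were lower. The share of all genes called against that control is not given here. Serpinb1a kept its call in 4 of 20 such fits and lost it without TMM (adjusted p = 0.0960). Anxa2 lost its call without TMM (adjusted p = 0.108).

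Scaling within the PROMPT table moved the median of all regions from 0.43 to 0.02. Plau was then at 4.42 and Plaur at 1.84, or 4.40 and 1.83 above that median, against 4.36 and 1.79 with gene scaling.

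Same-numbered libraries did not deviate together (r -0.087 to 0.152 over 40 pairs, 2 over 0.1, and 4 of 20 libraries correlated best with their own number), so the numbers do not pair them. With the replicate block, Plaur's joint adjusted p was 6.35e-05, its Btbd7 KO difference 0.55, the Plau PROMPT rise 4.83 and that of Plaur 2.06, and 6 rather than 7 serpins were lower.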
